A study of Mus musculus with 4 samples.

Results

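The genes described here encode proteoglycans and proteins that make or bind hyaluronan: Has2, Tnfaip6, Cd44, Vcan, Bgn, Dcn, Lum, Sdc1, Gpc3 and Hspg2. They were taken by gene symbol, and every probe with one of these symbols in the platform annotation was used. This gave 10 probes for 9 of the 10 genes, out of 22702 probes for 15096 named genes and unnamed sequences on the array. Cd44 had 2 probes, and Vcan had none under its symbol and was not analysed here. The genes were picked with their log2 ratios on these same 4 arrays in view, so their values are given as a description and without a test.

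The study set metanephric mesenchyme (MM), the mesenchyme of the permanent kidney, against intermediate mesoderm (IM), the mesoderm from which kidney, gonad and adrenal cortex derive. Both were dissected primary tissue of mouse embryos of both sexes at 10.5 days post coitum, with no genotype or treatment given in the labels. Amplified RNA of both tissues was hybridised together on each of 4 two-colour arrays, and the labels do not say whether embryos were pooled or whether arrays share RNA. MM was channel 1 on arrays 1 and 2, and IM was channel 1 on arrays 3 and 4, where the tissue nouns are crossed in the labels. Every value is a log2 ratio of MM over IM within an array, so 1 stands for a doubling, a positive ratio means higher in MM and a negative one lower in MM. This direction is the likely one from the order of names and channels in the labels, which do not give the dyes.

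Hyaluronan is a long unsulfated sugar polymer that synthases at the cell surface spin out into the matrix, where link-module proteins and the receptor Cd44 hold it. Proteoglycans are core proteins that carry sulfated sugar chains. Small leucine-rich ones sit on collagen fibrils, while syndecans and glypicans stay on the cell surface and bind growth factors there. Heparan sulfate is needed for ureteric bud branching and for signalling between bud and mesenchyme in the developing kidney.

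Among the 8 of these genes with a mean over 4 arrays, Tnfaip6 stood far above the rest and Bgn and Dcn were the lowest. Cd44 is left out of this order, because both of its probes reached the floor described below. Tnfaip6 averaged 16.3-fold higher in MM (log2 4.02 ± 1.72, SD, n = 4 arrays). Bgn and Dcn were 2.32-fold and 2.04-fold higher in IM (-1.21 ± 0.26 and -1.03 ± 0.55). Sdc1, Gpc3 and Lum had mean log2 ratios between 0.03 and 0.18. In bulk tissue such as this, fewer cells of a type and less RNA per cell cannot be told apart.

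The start regions of the genes at both ends of this range are shown. Tnfaip6 and Bgn had the highest and the lowest mean ratio among the 8 genes. Sequences were matched by symbol for 6 of the 9 genes in the RefSeq promoter table (GRCm38.p6), which gives 250 bases before and 50 after the annotated start. Capitals mark matches, on either strand, to the TATA box TATAAA, the GC box GGGCGG, the CCAAT box and the AP-1 element TGANTCA.
Tnfaip6, chr2:52037863-52038162, plus strand: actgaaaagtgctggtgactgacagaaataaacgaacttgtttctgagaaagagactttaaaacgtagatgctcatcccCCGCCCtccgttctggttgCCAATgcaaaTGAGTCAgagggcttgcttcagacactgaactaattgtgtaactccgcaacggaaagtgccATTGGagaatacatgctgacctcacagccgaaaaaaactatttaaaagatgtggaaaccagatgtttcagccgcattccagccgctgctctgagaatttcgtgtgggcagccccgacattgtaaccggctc
Bgn, chrX:73483351-73483650, plus strand: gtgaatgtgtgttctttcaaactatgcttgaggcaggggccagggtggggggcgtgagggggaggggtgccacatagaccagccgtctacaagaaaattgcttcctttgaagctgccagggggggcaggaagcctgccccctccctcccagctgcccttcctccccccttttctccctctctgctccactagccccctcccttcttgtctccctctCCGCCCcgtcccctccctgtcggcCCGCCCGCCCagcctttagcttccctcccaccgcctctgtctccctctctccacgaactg

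The Tnfaip6 window held a GC box beginning 171 bases before the start, CCAAT matches beginning 152 and 81 bases before it, and TGANTCA beginning 142 bases before it. The Bgn window held 3 GC boxes, beginning 34, 10 and 6 bases before the start, with the last 2 overlapping by 2 bases. Neither window held TATAAA. The same search matched TATAAA in 13.6%, GGGCGG in 35.7%, CCAAT in 37.4% and TGANTCA in 7.81% of 32851 RefSeq promoters of this length. The 6 windows were those of Tnfaip6, Cd44, Hspg2, Sdc1, Gpc3 and Bgn. Each held a GC box, and among these 6 only that of Tnfaip6 held TGANTCA. The GC content was 47.0% for Tnfaip6 and 63.7% for Bgn, against a median of 52.7% over all promoters. These matches describe letters in the window and were not tested as binding sites.

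The measurement differed between channel orientations, called here the first pair (arrays 1 and 2) and the second pair (arrays 3 and 4). Of the 22702 probes, 21509 and 21599 had a value on the arrays of the first pair, but 15812 and 16242 on those of the second. The lowest ratio in the table, 0.01 or -6.64 on the log2 scale, occurred on every array and is read as a floor, not a fold. It was reached 16 and 8 times on the first pair and 1672 and 1805 times on the second pair. Across the 13191 probes with 4 values above the floor, Pearson's r was 0.836 within the first pair and 0.912 within the second, and probes are no independent replicates. Between orientations it was 0.113 to 0.274, and with floor values included it was -0.349 to -0.26. Each ratio below is therefore given array by array.

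**Figure D1:**
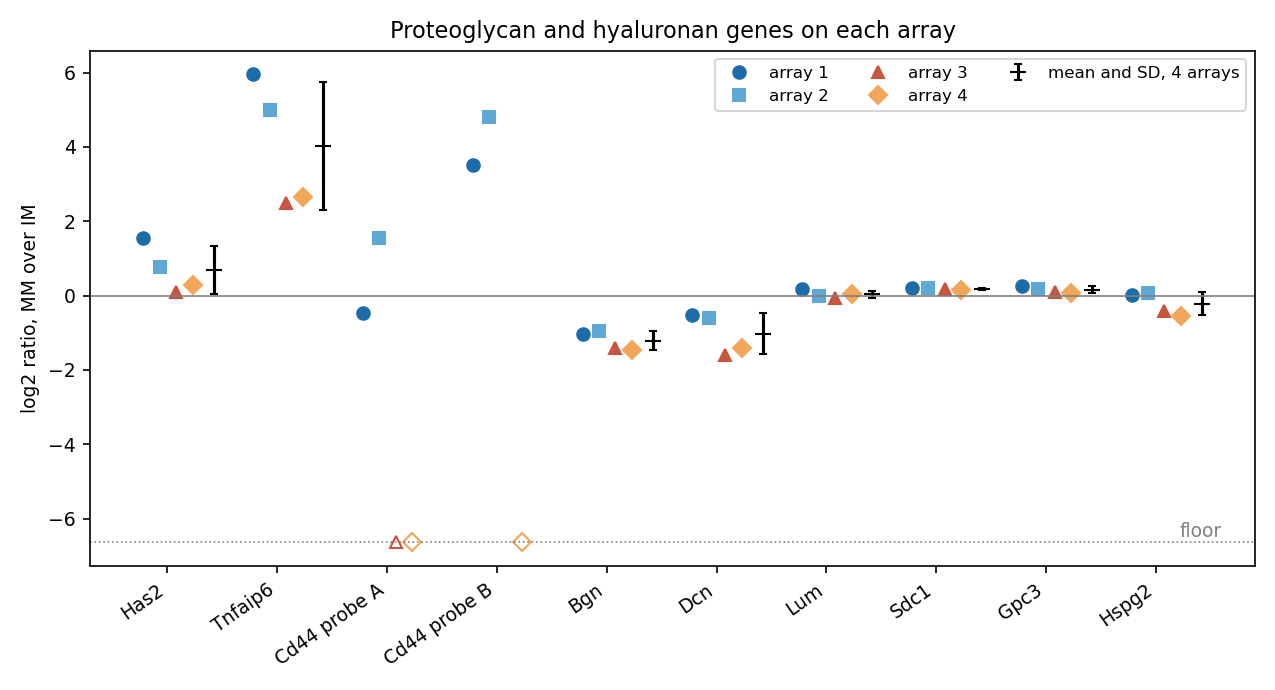
Log2 ratio of MM over IM (vertical axis) for each probe of the 9 measured genes on each of the 4 arrays. Black bars are the mean and SD over 4 arrays, and open symbols on the dotted line are at the floor of -6.64. Tnfaip6 lies between 2.48 and 5.96 and Bgn between -1.47 and -0.95, while both Cd44 probes reach the floor.

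Has2, the hyaluronan synthase that makes most embryonic hyaluronan, had log2 ratios of 1.55 and 0.78 on the first pair and of 0.10 and 0.29 on the second pair. All 4 were above 0, with a mean of 0.68 ± 0.65, or 1.60-fold. The ratio was 2.24-fold on the first pair and 1.14-fold on the second pair, a gap of 0.97 on the log2 scale. Arrays 1 and 2, of 1 orientation, themselves differed by 0.77. The cause was not tested.

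Tnfaip6, also called TSG-6, binds hyaluronan through a link module and transfers heavy chains of inter-alpha-inhibitor onto it. Its log2 ratios were 5.96 and 4.99 on the first pair and 2.48 and 2.66 on the second pair. Both orientations put it well above 0, at 44.5-fold on the first pair and 5.94-fold on the second pair. By mean ratio it ranked 3 of 13191 probes from the top. Within single arrays it ranked 1, 10, 126 and 92 from the top. All 4 ratios were at or above its lowest value, 2.48, for 11 of the 13191 probes, Tnfaip6 included.

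Cd44, the main cell-surface receptor for hyaluronan, could not be given a fold. Probe A read -0.46 and 1.54 on the first pair and lay at the floor on the second. Probe B read 3.52 and 4.82 on the first pair, had no value on array 3 and lay at the floor on array 4. The probes thus differed from each other on the first pair, and probe B was above 0 there and at the floor on array 4. Over all probes with a floor value on array 3 or 4 and values on both other arrays, 68.1% were above 0 on the first pair. The share was 35.9% of the probes above the floor. Probe B shares this pattern with many probes of the array.

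The small leucine-rich proteoglycans differed among themselves. Bgn, biglycan, which carries chondroitin or dermatan sulfate chains and binds collagen, read -1.03 and -0.95 on the first pair and -1.40 and -1.47 on the second pair. It was lower in MM on all 4 arrays, and the orientations differed by 0.44 on the log2 scale. By mean ratio it ranked 77 of 13191 from the bottom, and 68 probes had all 4 ratios at or below its highest value, -0.95.

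Dcn, decorin, a collagen-binding core protein closely related to biglycan, read -0.52 and -0.60 on the first pair and -1.60 and -1.40 on the second pair. It too was lower in MM on all 4 arrays. The reduction was deeper on the second pair, by 0.94 on the log2 scale. By mean ratio it ranked 133 from the bottom.

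Lum, lumican, a keratan sulfate core protein that regulates fibril spacing in the cornea, read 0.17 and 0.00 on the first pair and -0.06 and 0.03 on the second pair. Its mean was 0.03 ± 0.10, and the sign differed between arrays. In the RefSeq gene table (GRCm38.p6) Lum follows Dcn directly, and Kera and Epyc, which encode further small leucine-rich proteins, come next. Kera read 3.20 and 1.49 on the first pair, had no value on array 3 and was at the floor on array 4. Epyc read 4.51 and 1.20 and was at the floor on the second pair. The 4 neighbouring genes did not share 1 direction on all arrays.

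The cell-surface heparan sulfate proteoglycans showed small ratios in MM. Sdc1, syndecan-1, a transmembrane core protein of epithelia that is also known from condensing kidney mesenchyme, read 0.20 and 0.21 on the first pair and 0.17 and 0.16 on the second pair. Its mean was 0.18 ± 0.03, or 1.14-fold, the smallest SD among the 8 probes with 4 values above the floor.

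Gpc3, glypican-3, is anchored to the membrane by a lipid and restrains growth signalling, and mice without it overgrow and have dysplastic kidneys. It read 0.27 and 0.19 on the first pair and 0.09 and 0.07 on the second pair, a mean of 0.16 ± 0.09 or 1.11-fold. Gpc4 lies next to Gpc3 in the RefSeq gene table, and its 2 probes disagreed. One read -0.30 and -0.36 on the first pair and 0.63 and 0.43 on the second pair, and the other 0.14 and 0.18, then -0.33 and -0.29.

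Hspg2, perlecan, the large heparan sulfate proteoglycan of basement membranes, read 0.01 and 0.08 on the first pair and -0.42 and -0.55 on the second pair. The mean was -0.22 ± 0.31. The orientations lay on different sides of 0, so no direction can be given.

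Ordered by mean ratio, the 8 probes with 4 values above the floor ran Tnfaip6, Has2, Sdc1, Gpc3, Lum, Hspg2, Dcn and Bgn. The lowest Tnfaip6 value, 2.48, lay above the highest of Has2, 1.55. The ranges of Has2, Sdc1, Gpc3 and Lum overlapped, as did those of Lum and Hspg2, of Hspg2 and Dcn, and of Dcn and Bgn. The highest Bgn value, -0.95, lay below the lowest of Hspg2, -0.55.

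Of the 8 probes, 4 were above 0 on all arrays and 2 below 0 on all arrays, against 22.5% and 30.0% of the 13191 probes. Their median mean ratio was 0.09, against -0.05 over those probes. All 8 had a higher mean on the first pair than on the second pair, which was so for 49.3% of all probes. The median size of that gap was 0.49, against 0.30 over all probes. In limma, 8 of the 9 probes with 4 values passed an adjusted p threshold of 0.05 in a fit with a channel orientation term, 1 of them through floor values. Of all probes 61.9% passed there. In that fit and the fit without the term alike, 4 of the 9 passed, against a background of 28.0%. Since the genes were picked from these ratios, nothing is read from either count.

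**Figure D2:**
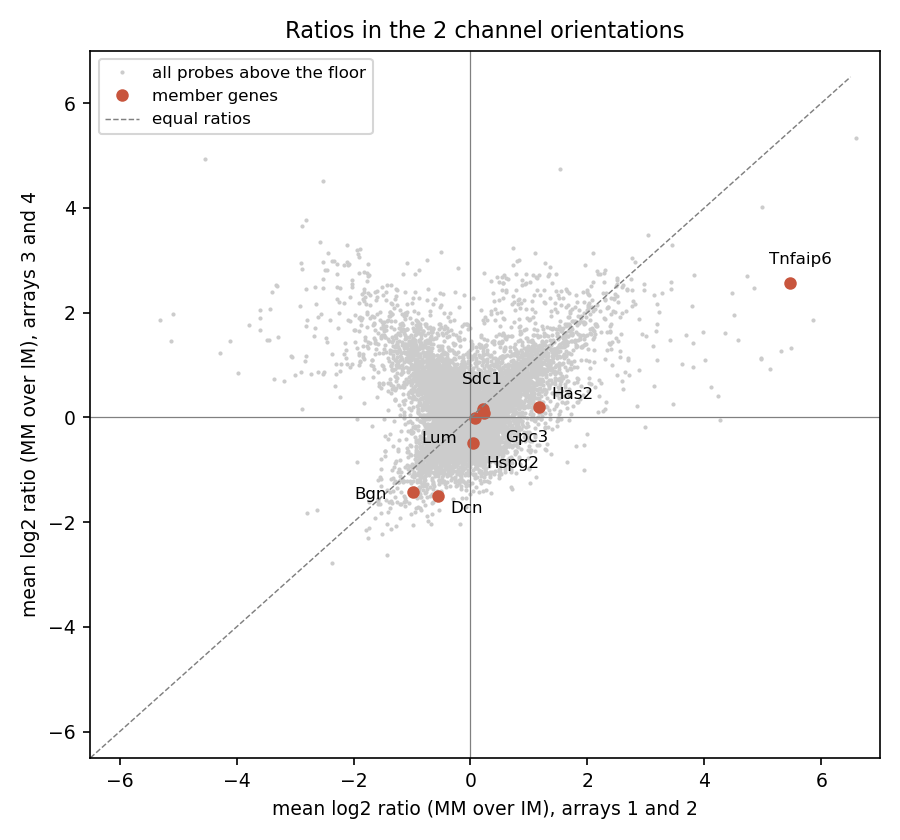
Mean log2 ratio of MM over IM on arrays 1 and 2 (horizontal axis) and on arrays 3 and 4 (vertical axis). Grey points are the 13191 probes with 4 values above the floor, and red points are 8 of the genes described. All 8 lie below the dashed line of equal ratios, Tnfaip6 farthest at 5.47 and 2.57.

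For the genes with a mean log2 ratio of at least 1 in size, the named probes with the most similar ratios were looked up by Euclidean distance over the 4 arrays, among 10869 probes. For Tnfaip6 these were Ttc30a1, Txnip and Ppfibp1, at distances of 1.27, 1.47 and 1.80. Txnip, a thioredoxin-binding protein, read 4.94 and 4.00 on the first pair and 2.13 and 2.61 on the second pair. For Bgn they were Gsn, the actin-severing protein gelsolin, at 0.14, Spa17 at 0.18 and Zfp553 at 0.19. For Dcn they were 4930431P19Rik, Gtsf1l and Rspo1, at 0.17, 0.20 and 0.22. Rspo1, an enhancer of Wnt signalling in the gonad, read -0.64 and -0.64 on the first pair and -1.65 and -1.56 on the second pair. With 4 arrays this is a description of resemblance alone.

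The remaining genes of the same biology moved in both directions and mostly little. Of 123 other genes for core proteins, hyaluronan handling and sugar chain synthesis or breakdown, 100 had a probe and 70 had a probe with 4 values. Of these 70, 20 (28.6%) rose and 20 (28.6%) fell in MM in the fit with the orientation term, 6 of the latter through floor values, and 30 did not pass. The background over all probes was 23.8% higher and 38.1% lower, and the counts of each list below stand against it. In both fits 9 rose (12.9%) and 2 fell (2.9%), against 13.6% and 14.4% of all probes. The median log2 ratio of the 63 genes above the floor was -0.03. Without array 3 or without array 4 the genes that fell numbered 10, and without array 2 the genes that rose numbered 13.

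**Figure D3:**
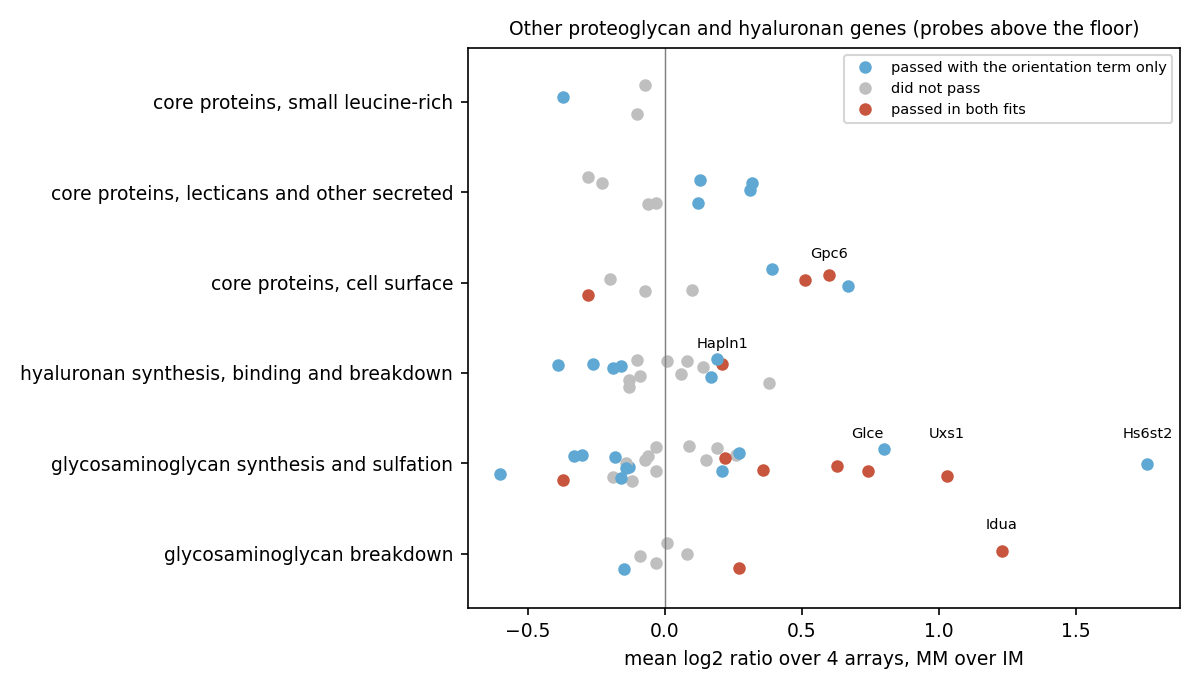
Mean log2 ratio of MM over IM over 4 arrays (horizontal axis) for probes of 6 lists of other proteoglycan and hyaluronan genes with 4 values above the floor. Each point is a probe, coloured by whether it passed in both fits, with the orientation term only, or in neither. Most points lie within 0.5 of 0, and Hs6st2 at 1.76 and Idua at 1.23 lie farthest to the right.

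Genes for hyaluronan synthesis, binding and breakdown were mixed. Of 15 tested, 3 rose, 4 fell (1 of them, Itih3, through floor values) and 8 did not pass, and 1 rose in both fits. That gene was Hapln1, the link protein that locks versican and its relatives onto hyaluronan, at 0.21 ± 0.03 (limma adjusted p = 0.00906). Hapln1 is the neighbour of Vcan in the RefSeq gene table. Ptx3, which binds Tnfaip6 in hyaluronan matrix, rose in the fit with the orientation term but read 0.38 and 0.42 on the first pair and 0.00 and -0.04 on the second pair. Of the heavy chains that Tnfaip6 transfers, Itih1 fell (-0.19 ± 0.05, adjusted p = 0.0133 in limma with the orientation term and 0.0515 without it). Itih2 read 3.27 and 1.86 on the first pair alone. Itih3 read 3.61 and 0.78 on the first pair and was at the floor on the second pair. The hyaluronidases Hyal1 (-0.09 ± 0.16) and Hyal2 (0.01 ± 0.15) and the synthase Has3 (-0.13 ± 0.09) did not pass. The synthase Has1 read 2.02 and 2.04 on the first pair, had no value on array 3 and was at the floor on array 4.

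Among other cell-surface core proteins, 3 of 6 tested rose and 2 fell, 1 of them, Cspg5, through floor values. Gpc6 rose by both of its probes, at 0.60 ± 0.13 and 0.51 ± 0.09 (limma adjusted p = 0.00152 and 0.00205), or 1.51-fold and 1.42-fold. Gpc2, a glypican of the developing nervous system, fell by 0.28 ± 0.12 (adjusted p = 0.0053 in limma, and 0.0499 without the orientation term). Gpc1 rose in the fit with the orientation term, reading 1.51 and 1.21 on the first pair and -0.03 and -0.01 on the second pair. Of the other small leucine-rich proteins, 0 of 5 tested rose and 2 fell, 1 of them, Ecm2, through floor values. Of 6 other secreted core proteins, 3 rose with the orientation term and 0 passed in both fits. They included agrin (Agrn, 0.32 ± 0.16 and 0.13 ± 0.21 by 2 probes) and collagen XVIII (Col18a1, 0.31 ± 0.15), which share basement membranes with perlecan. The Agrn probe at 0.13 read -0.00 and -0.08 on the first pair, and another Agrn probe read -1.01 and -0.20 on that pair alone.

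Enzymes that build and sulfate the chains moved in both directions. Of 30 tested, 9 rose, 10 fell (2 through floor values) and 11 did not pass, with 5 rising (16.7%) and 1 falling (3.3%) in both fits. Both shares can be read against the 13.6% and 14.4% of all probes given above. Uxs1, which makes the UDP-xylose that starts chondroitin and heparan sulfate chains, rose by 1.03 ± 0.13 (2.04-fold, limma adjusted p = 0.000513). Its 4 values lay between 0.91 and 1.16. Glce, the epimerase that makes iduronic acid in heparan sulfate, rose by 0.74 ± 0.14 (adjusted p = 0.00247 in limma), and a second probe read 4.03 and 4.59 on the first pair alone. Csgalnact2, which starts chondroitin sulfate chains, rose by 0.63 ± 0.16 (limma adjusted p = 0.00843). Papss1, which makes the sulfate donor, rose by 0.36 ± 0.06, and B3galt6 of the linker region by 0.22 ± 0.07. The heparan sulfate 6-O-sulfotransferases differed. Hs6st3 fell by 0.37 ± 0.13 in both fits, Hs6st2 read 2.88 and 2.53 on the first pair and 0.69 and 0.94 on the second pair, and Hs6st1 read 3.50 and 3.78 with the floor on the second pair. The polymerases Ext1 (-0.18 ± 0.09) and Ext2 (-0.16 ± 0.17) fell with the orientation term and did not pass without it.

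Of 8 genes for chain breakdown in the lysosome, 2 rose, both in both fits, 2 fell with the orientation term, 1 of them through floor values, and 4 did not pass. Idua, the iduronidase, rose by 1.23 ± 0.36 (2.35-fold, limma adjusted p = 0.00176), reading 0.84 and 1.05 on the first pair and 1.38 and 1.66 on the second pair. Gusb, the glucuronidase, rose by 0.27 ± 0.10 (adjusted p = 0.0099 in limma).

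Floor values among the 118 probes of these other genes were confined to the second pair, where there were 28, against 0 on the first pair. They fell on 19 probes of 17 genes: Kera, Epyc, Ecm2, Prg2, Spock2, Srgn, Gpc5, Cspg5, Itih3, Has1, Ndst4, Xylt1, Extl3, Hs6st1, Slc26a2, Ids and Arsb. Of these probes 13 were above 0 on both arrays of the first pair, as Cd44 probe B was. Among them was Spock2, a testican, which read 2.55 and 3.47 there by one probe and 2.20 and 1.41 by the other. No fold is given for these probes.

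Most tested markers of the 2 tissues went with the labels. Over all probes, 13.6% rose and 14.4% fell in both fits. Of 6 tested MM markers 4 rose, in both fits, while Eya1 and Cited1 did not pass. Those that rose were led by Six2, a factor of nephron progenitors, at 3.00 ± 0.63 and Gdnf, the bud-inducing growth factor, at 1.92 ± 0.13. Sall1, an MM marker that was not tested, read 0.24 and -0.12 on the first pair. It had no value on array 3 and was at the floor on array 4. Of 5 tested genes listed for IM, adrenal and gonad, 4 fell, in both fits, among them Nr5a1 (-1.68 ± 0.22) and Wt1 (-1.57 ± 0.02). Being in this list does not make Wt1 particular to these tissues, so its fall is not read as going with the labels. Lhx9 (0.06 ± 0.15) did not pass, and Gata4 read 1.81 and -5.36 on the first pair alone. The 8 markers that passed kept their sign on all 4 arrays.

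Markers of other cell types moved beside the proteoglycans. Over all probes, 23.8% rose and 38.1% fell with the orientation term, and 13.6% and 14.4% in both fits. The lists are small, and none was tested against these shares. Of 7 tested epithelial markers 6 rose and 1, Cdh16 (-1.40 ± 0.05), fell (4 and 1 in both fits). The median of 1.32 was the mean of Cdh1, which read -0.35 and -0.07 on the first pair and 2.76 and 2.94 on the second pair. Krt18 read 0.31 and -0.35 on the first pair alone. Epcam at 1.87 ± 0.06 was far above Sdc1, an epithelial gene as well, at 0.18. Of 7 tested muscle and somite markers 7 fell (5 in both fits), with a median of -1.15 over 6 above the floor, in the same direction as Bgn and Dcn. Myod1 fell through floor values and read 1.00 and -0.23 on the first pair. Untested markers of this list did not all go that way. Actc1 read 3.49 and 4.22 on the first pair alone, and Myf5 read 0.57, 0.47 and -0.15 on arrays 1, 2 and 4. Of 3 tested leukocyte markers 0 rose and 2 fell, Laptm5 (-0.53 ± 0.02) and Cd68 (-0.53 ± 0.20), while Fcer1g did not pass. The other leukocyte markers had too few values for the test and did not share a direction. Ptprc read -0.49, -0.36 and 0.06 on arrays 1, 2 and 4, and Adgre1 read 0.17, 2.05 and 1.93 on arrays 2, 3 and 4. Itgam, at 1.52 and 1.56, and Lyz2, at 0.86 and 0.63 by one probe and 0.66 and 0.83 by the other, had values on the first pair alone. Tyrobp (0.90 and 0.28) and Cx3cr1 (-0.49 and 0.33) read so on the first pair and were otherwise at the floor or without a value. Leukocytes also express Cd44. Of 8 endothelial markers 4 rose and 3 fell, with a median of 0.17, and of 7 cartilage and limb mesenchyme markers 2 rose and 1 fell, with a median of -0.03. Ratios within an array give no levels, and the part of other cells in the proteoglycan ratios was not tested.

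**Figure D4:**
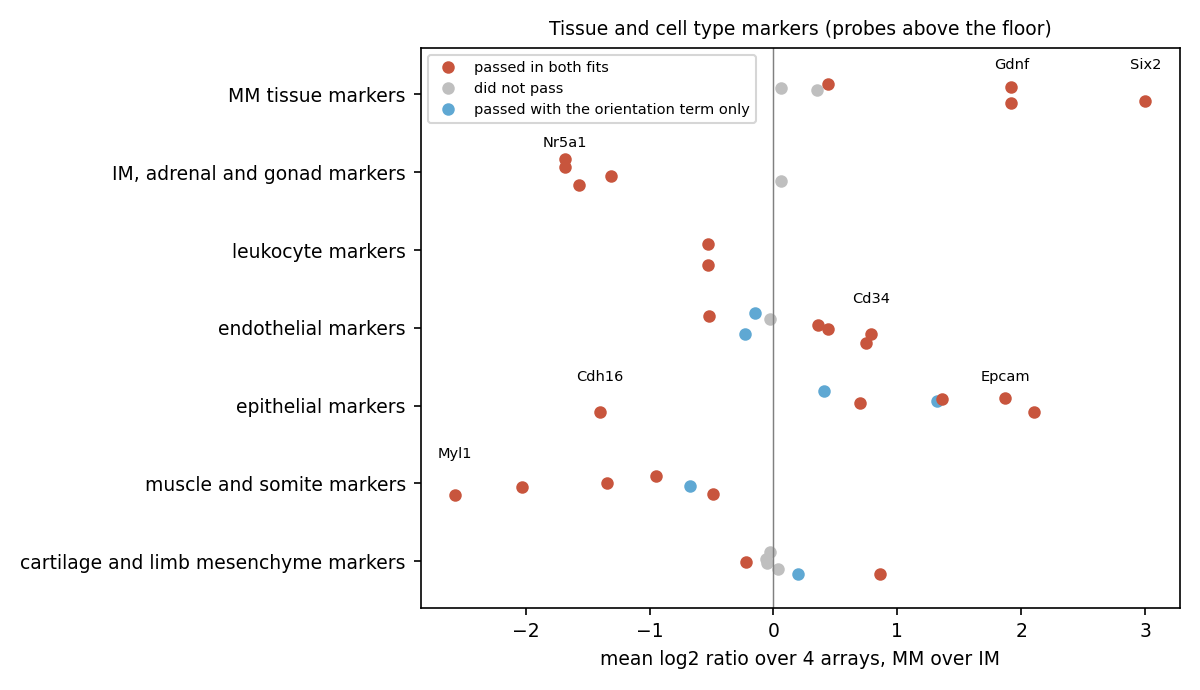
Mean log2 ratio of MM over IM over 4 arrays (horizontal axis) for probes of 7 lists of tissue and cell type markers with 4 values above the floor. Each point is a probe, coloured by whether it passed in both fits, with the orientation term only, or in neither. MM and most epithelial markers lie to the right of 0, and muscle, leukocyte and most IM markers to the left.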

How the data were processed

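The authors deposited a log2 ratio for each probe on each array. Imagene 5.5 quantified the spots, per the labels' protocols, the channels of arrays 3 and 4 were exchanged to undo the dye swap, and a lowess fit over 20.0% of the data corrected the control value, which was not allowed under 10. How background and flagged spots were handled is not given in the sources used here. Base 2 was inferred from the numbers themselves, since raising 2 to them gave whole thousandths (tolerance 0.01 thousandths) for 98.9% to 100% of ratios under 1, against at most 3.08% with e or 10. No intensities were used, so brightness over background is unknown, and precision is limited by the small number of arrays.

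Genes, lists, tests and alternatives were chosen with earlier results of these data known. Named genes were all members, other genes that passed in both fits with 1 sign and a mean of at least 0.5, genes at the floor, the 3 nearest probes of members with a mean of at least 1, and marker genes. Further genes were named for their role after their values were seen. Symbols came from the platform annotation, and 16566 of 17252 probes with 1 symbol matched the RefSeq gene table (GRCm38.p6); the 156 probes with several symbols were not named.

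The 14184 probes with 4 values were fitted in limma 3.58.1 (R 4.3.3) with a tissue intercept and a term for channel orientation, and p-values were adjusted over all of them by Benjamini-Hochberg. Residual error then comes from pairs of arrays of 1 orientation, so the fit without the term is given beside it, and the p-values reflect the spread among these 4 arrays alone, which may be technical. A gene was counted once, by the probes that passed. The fits were also run on simulated arrays, for probes with 4 values above the floor and with independent noise on each array. That run cannot speak for floor values or for arrays that share RNA. Errors are SDs over 4 arrays.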

Additional observations from a re-analysis of the deposited data

How the results depend on the processing

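Each ratio already pairs MM with IM on 1 array, and no paired analysis was possible beyond this because an array gives only 1 ratio per probe. Of 72 recomputed means of the 8 probes above the floor, 71 moved by less than 1 SD. Centring the arrays on their medians moved the other, Sdc1, to 0.24. For most settings this count cannot show stability, because the SD over 4 arrays includes the gap between orientations. Dropping 1 array or keeping 1 pair cannot shift a mean by 1 SD, and these probes have no floor values to drop. Tnfaip6 stayed within 1 SD although its mean of 4.02 became 5.47 with the first pair and 2.57 with the second. Leaving out 1 array gave 3.38 to 4.54 for Tnfaip6, -1.30 to -1.13 for Bgn, -1.20 to -0.84 for Dcn, -0.01 to 0.07 for Lum, 0.17 to 0.19 for Sdc1, 0.12 to 0.18 for Gpc3, 0.39 to 0.87 for Has2 (lowest without array 1), -0.32 to -0.11 for Hspg2 (nearest 0 without array 4) and 0.05 to 0.12 for the median of the 8. Without the orientation term 3968 probes, 9 higher and 2 lower other genes and 4 of the genes' own probes passed. On arrays 1 and 2 alone 5614 probes, 16 higher and 8 lower other genes and 3 of the genes' own probes passed. On arrays 3 and 4 alone 7701 probes, 14 higher and 23 lower other genes and 6 of the genes' own probes passed. Centring the arrays gave 24 higher and 17 lower other genes, so their balance shifted with the setting. Leaving out 1 array in turn left 5808 to 6782 probes, 13 to 14 higher and 10 to 22 lower other genes, and 3 to 7 of the genes' own probes, against 8779, 20, 20 and 8. The causes were not tested.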
